A study of Homo sapiens with 15 samples.

Results

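Expression of 10 genes of secreted inflammatory signals was examined in MDA-MB231, an established line of triple-negative breast cancer cells, after a hairpin RNA against the transcriptional corepressor CtBP2 or its chemical inhibition. The genes were chosen by name as those of IL6, IL11 and LIF, of IL1A and IL1B, and of the chemokines CXCL1, CXCL2, CXCL3, IL8 (now CXCL8) and CCL5. All 10 were found among the 30982 genes of the array, through 13 of its 41000 probes. IL6, IL1A and IL1B had 1 probe each, printed in 10 spots, CXCL2, CXCL3 and LIF had 2 probes each and the other genes had 1 probe in a single spot.

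Tumor cells and leukocytes secrete these proteins. IL6, IL11 and LIF act through receptor complexes that share the gp130 chain (IL6ST) and signal to STAT3, while IL1A and IL1B bind the IL-1 receptor and signal through MYD88 and the IRAK kinases to NF-kappaB. CXCL1, CXCL2, CXCL3 and IL8 attract neutrophils through CXCR1 and CXCR2, CCL5 attracts T cells and monocytes, and NF-kappaB and C/EBP factors are known activators of most of these genes.

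The study compared 3 treatments aimed at CtBP2, with 5 biological replicates each. The shCtBP2 cells carried a stably transfected short hairpin RNA against CTBP2 and were selected with puromycin, and other cells were treated with HIPP or with P4, small-molecule CtBP2 inhibitors that carry an oxime and a hydrazone group on the same phenylpropanoate. The labels give collection at 24 h. They give no doses, and the concentrations in the study's methods, given for cell counting, differ between the inhibitors, so that HIPP and P4 are set side by side without a test between them. On each array RNA of the treated cells was labelled with Cy5 and RNA of control MDA-MB231 cells with Cy3. The labels name untreated cells as the control throughout, whereas the paper's methods describe a scrambled hairpin for shCtBP2. Each value is a log2 ratio of treated to control signal, and no array had its dyes swapped, so a ratio tested against 0 may hold a dye effect of the probe. Whether the shCtBP2 cells were a pool or 1 clone is not given in the sources used here.

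Of the 43376 gene spots, 65.2 to 77.5% per array exceeded background clearly in the treated channel and 64.9 to 81.0% in the control channel. CTBP2 itself averaged −0.41 ± 0.11 on the shCtBP2 arrays (log2 ratio, SD, n = 5, limma adjusted p = 0.0595), negative on 5 of 5 arrays and past neither threshold. It averaged 0.57 ± 0.36 with HIPP (limma adjusted p = 0.00256) and 0.17 ± 0.35 with P4 (limma adjusted p = 0.344). The arrays lay on 4 slides. P4 replicates 1 to 4 were on slide 1, P4 replicate 5 and HIPP replicates 1 to 3 on slide 2, HIPP replicates 4 and 5 with shCtBP2 replicates 1 and 2 on slide 3, and shCtBP2 replicates 3 to 5 on slide 4. Slide 1 was scanned on another day. Over all genes, ratios of 2 arrays of a treatment correlated at 0.30 to 0.57 for shCtBP2, 0.42 to 0.75 for HIPP and 0.34 to 0.70 for P4, except P4 replicates 1 and 3 (0.012). VIM, CD44, AXL and CAV1, known in MDA-MB231 cells, were well above background on 15 of 15 arrays in both channels. Of these, CAV1 (−2.07 ± 0.29 with HIPP and −1.38 ± 0.18 with P4) and CD44 (1.40 ± 0.28 with HIPP, SD, n = 5) were called, and the part of such changes in the results below was not tested. CDH1 and PGR, which the line lacks, were so on 0 of 15, but ERBB2 and TACSTD1 (EPCAM) were so on 15 of 15 and ESR1 on 12 (treated) and 11 (control).

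Genes past a limma adjusted p of 0.05 and a fold change of 1.5 (shCtBP2), 2.5 (HIPP) or 1.8 (P4) are called differentially expressed, after the study's thresholds. Of the 10 genes, 2 were called in shCtBP2 cells, where 6.55% of the 27574 genes tested were called (3.34% higher and 3.21% lower). IL11 rose and IL6 fell. In RNA of whole cultures, fewer cells of a kind and less RNA per cell cannot be told apart. With HIPP 3 were called, beside 7.04% of all genes (3.43% higher and 3.61% lower), and with P4 2, beside 8.46% (4.3% higher and 4.17% lower). CXCL2 and CXCL3 were higher with HIPP, CXCL3 and IL1B were higher with P4, and the further HIPP call was IL1A, whose control signal was well above background in 0 of 50 spots. At the adjusted p alone, 2 of the 10 genes passed in shCtBP2 cells, where 13.5% of all genes did (6.58% higher and 6.92% lower). With HIPP 5 passed, 4 higher and 1 lower, beside 48.7% of all genes (24.9% higher and 23.9% lower). With P4 4 passed, all higher, beside 31.9% (17% higher and 14.8% lower). With HIPP the share among the 10 genes was close to that of all genes. The median log2 ratio of the 10 genes was 0.22 in shCtBP2, 0.03 in HIPP and 0.14 in P4 arrays, beside 0.04, 0.08 and 0.11 over all genes tested.

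**Figure D1:**
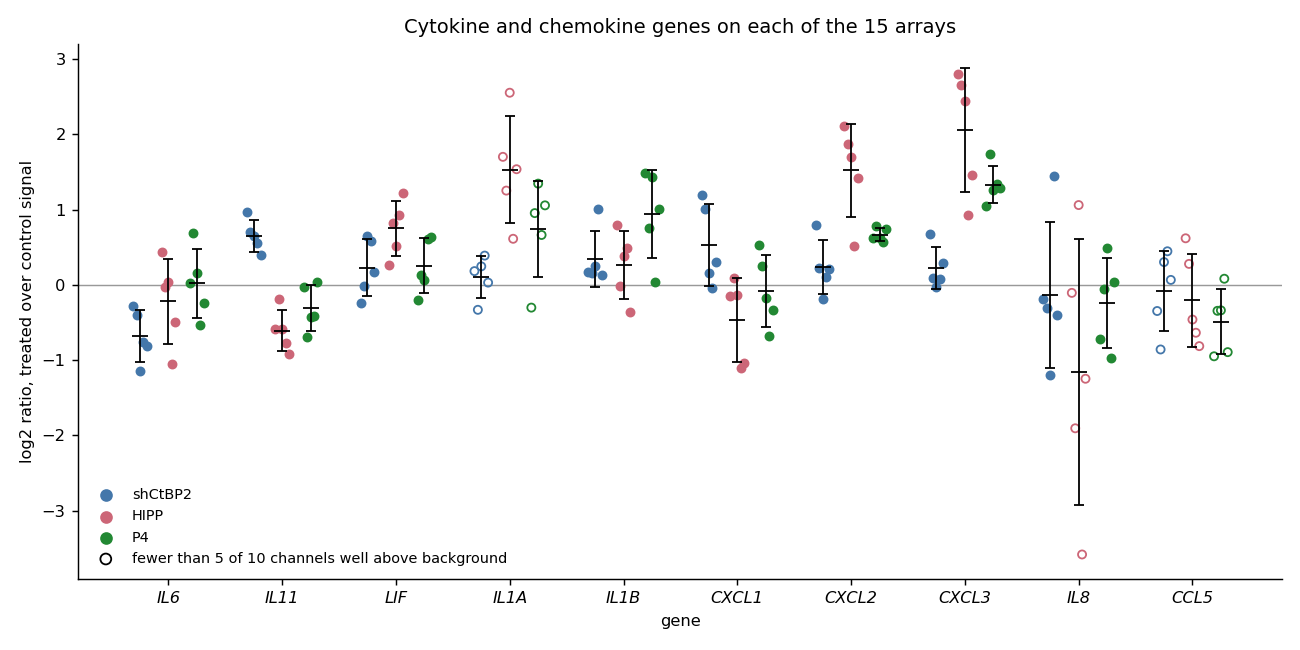
Log2 ratio of treated to control signal (vertical axis) of the 10 genes (horizontal axis), with 1 point per array, 5 arrays per treatment, and the mean and SD as bars. Open points mark genes with fewer than 5 of the 10 channels of that treatment well above background. CXCL2 and CXCL3 lie above 0 on all HIPP and P4 arrays, IL11 above 0 on all shCtBP2 arrays and below 0 on all HIPP arrays.

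CXCL1, CXCL2 and CXCL3 lie in 1 cluster of closely related chemokine genes on chromosome 4. Promoter stretches are shown because bases at and just before a kappaB match are nearly the same, while the measured ratios were not. RefSeq promoter sequence (GRCh38.p14) was found for 8 of the 10 genes, not for LIF and CCL5. Each stretch below holds 100 bases and ends at base −46 relative to the transcription start, 5′ to 3′ on the gene's strand, for CXCL1 (chr4:73869248-73869347, plus strand), CXCL2 (chr4:74099241-74099340, minus strand) and CXCL3 (chr4:74038735-74038834, minus strand). Matches to the kappaB consensus are in capitals.
CXCL1: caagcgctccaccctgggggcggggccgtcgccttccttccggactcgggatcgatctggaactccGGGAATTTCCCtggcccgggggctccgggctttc
CXCL2: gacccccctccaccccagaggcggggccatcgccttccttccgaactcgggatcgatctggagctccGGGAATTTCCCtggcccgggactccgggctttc
CXCL3: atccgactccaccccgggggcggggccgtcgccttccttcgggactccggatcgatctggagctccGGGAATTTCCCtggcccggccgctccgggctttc

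The match starts at −79 in CXCL1, −78 in CXCL2 and −79 in CXCL3. Lined up on it, the 60 bases made of the match and the 50 bases before it were identical at 56 positions between CXCL1 and CXCL2, at 57 between CXCL1 and CXCL3 and at 55 between CXCL2 and CXCL3. Sequence outside these 60 bases was not compared. In the windows of 300 bases around the start, 5.91% of 35116 promoters hold the kappaB consensus on either strand. Of the 8 genes with a promoter, 4 held it, the 3 above and IL6. The same stretches of IL6 (chr7:22727055-22727154, plus strand) and IL8 (chr4:73740424-73740523, plus strand, listed as CXCL8) are shown beside them, since both genes are known targets of NF-kappaB.
IL6: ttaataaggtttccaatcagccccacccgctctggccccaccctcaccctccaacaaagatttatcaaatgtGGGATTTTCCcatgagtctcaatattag
CXCL8: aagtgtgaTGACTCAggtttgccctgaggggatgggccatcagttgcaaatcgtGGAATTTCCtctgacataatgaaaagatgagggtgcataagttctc

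In IL6 the kappaB match starts at −73. IL8 held the shorter run GGAATTTCC at −91, found on either strand in 0.461% of all promoters and contained in the kappaB matches of the 3 CXCL genes, and the AP-1 motif TGANTCA at −137, found in 7.71%. TGANTCA was also present in the promoters of IL11 (at −96) and IL1A. These are matches of letters, and no binding was measured.

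CXCL3, a chemokine ligand of CXCR2, was called under both inhibitors. With HIPP its log2 ratios on replicates 1 to 5 were 2.80, 2.66, 2.44, 0.92 and 1.46. All 5 were positive, as in 25.6% of all genes tested, and the 3 arrays of slide 2 were higher than the 2 of slide 3. The mean was 2.06 ± 0.82 (SD, n = 5, limma adjusted p = 2.62e-06), 4.16 times the control signal. With P4 the ratios of CXCL3 were 1.04, 1.73, 1.27, 1.34 and 1.28, all positive and close together, where 17.3% of all genes were positive on every P4 array. The mean was 1.41 without replicate 1 and 1.35 without replicate 3. Their mean was 1.33 ± 0.25 (SD, n = 5, limma adjusted p = 0.000438), 2.52 times the control. With the brightest probe alone, which is the coding probe, the P4 ratio was 0.63 (limma adjusted p = 0.0115), below the fold-change threshold. In shCtBP2 cells the ratios were 0.67, 0.09, −0.03, 0.07 and 0.29, with 1 array below 0 and 0.22 ± 0.28 on average (SD, n = 5, limma adjusted p = 0.566). CXCL3 was 1.84 higher with HIPP than in shCtBP2 cells on the log2 scale (95% interval 1.17 to 2.5, limma adjusted p = 0.000454), and 1.11 higher with P4 (95% interval 0.45 to 1.77, limma adjusted p = 0.0303). The P4 difference no longer passed when any of shCtBP2 replicates 2 to 5 or P4 replicates 2, 4 or 5 was left out (1.01 to 1.13, limma adjusted p = 0.056 to 0.0678), and was 0.45 with the brightest probe (limma adjusted p = 0.26). Within slide 3, which held both HIPP and shCtBP2 arrays, the HIPP difference was 0.81. Over the 10 genes, 5 differed between HIPP and shCtBP2, with CXCL2, CXCL3 and the dim IL1A higher and CXCL1 and IL11 lower, beside 26.4% of the 24951 genes compared (12.3% higher and 14.1% lower). Between P4 and shCtBP2 2 differed, CXCL3 higher and IL11 lower, beside 12.1% of 24985 (6.14% higher and 5.92% lower).

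CXCL2, a ligand of the same receptor, was called with HIPP and passed the adjusted p with P4. With HIPP its ratios were 2.11, 1.87, 1.70, 0.52 and 1.42, with the lowest value on replicate 4. The mean was 1.52 ± 0.62 (SD, n = 5, limma adjusted p = 6.53e-06), 2.87 times the control. With P4 the ratios were 0.63, 0.78, 0.62, 0.57 and 0.74, the least scattered of the 10 genes in any treatment. They averaged 0.67 ± 0.09 (SD, n = 5, limma adjusted p = 0.0108), below the fold-change threshold. The P4 ratio did not pass with slide as a fixed block (0.14, limma adjusted p = 0.753), with normexp and loess (0.43, limma adjusted p = 0.0502) or by the methods' t-test (adjusted p = 0.0663). In shCtBP2 cells they were 0.80, 0.23, −0.18, 0.11 and 0.22 (0.23 ± 0.36, SD, n = 5, limma adjusted p = 0.431). CXCL2 was 1.29 higher with HIPP than in shCtBP2 cells (95% interval 0.75 to 1.83, limma adjusted p = 0.00144). With P4 the difference of 0.43 did not pass the test (95% interval −0.10 to 0.97, limma adjusted p = 0.309).

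CXCL1, which matches CXCL2 at 56 of the 60 promoter bases compared, was called in no treatment. Its HIPP ratios were −0.15, 0.09, −0.13, −1.10 and −1.03, near 0 on slide 2 and negative on slide 3. The mean was −0.46 ± 0.56 (SD, n = 5, limma adjusted p = 0.0937). With P4 the ratios were 0.53, 0.25, −0.18, −0.68 and −0.33, on both sides of 0, with a mean of −0.08 ± 0.48 (SD, n = 5, limma adjusted p = 0.797). In shCtBP2 cells they were 1.20, 1.00, 0.16, −0.04 and 0.30, high on the 2 arrays of slide 3 and near 0 on slide 4 (0.53 ± 0.54, SD, n = 5, limma adjusted p = 0.133). The gene was 0.99 lower with HIPP than in shCtBP2 cells (95% interval of the difference −1.66 to −0.32, limma adjusted p = 0.0296), and within slide 3 the difference was −2.17. It no longer passed without shCtBP2 replicate 1 or 2 or HIPP replicate 4 or 5 (−0.87 to −0.82, limma adjusted p = 0.0762 to 0.0819). With P4 the difference from shCtBP2 was −0.61 (limma adjusted p = 0.247, and 0.0226 with the replicate number as a block). With that block the ratios against 0 passed the adjusted p in shCtBP2 cells (0.00849) and with HIPP (0.00403), and with slide as a fixed block the HIPP ratio did (−0.73, limma adjusted p = 0.009). The sample titles give replicate numbers but no pairing across treatments, and 3 of 15 arrays correlated best with arrays of their own number. CXCL2 and CXCL3 each had a higher ratio, averaged over their probes, than CXCL1 on 5 of 5 HIPP arrays and 5 of 5 P4 arrays, and on 1 of 5 shCtBP2 arrays.

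The paired probes of CXCL2 and CXCL3 differed in how far they moved. CXCL3 was read by a probe near the 3′ end (hg17, chr4:75267737-75267796, minus strand) and by a probe in the coding sequence (hg17, within chr4:75268026-75268900). The 3′ probe gave 3.65, 3.36, 3.15, 1.28 and 1.86 with HIPP and the coding probe 1.94, 1.97, 1.72, 0.56 and 1.07. The 3′ probe was higher on every HIPP array. With P4 it gave 1.85, 2.74, 1.83, 1.79 and 1.97 and the coding probe 0.24, 0.73, 0.71, 0.89 and 0.60. The control signal of the 3′ probe was well above background on 3 of 5 P4 arrays, whereas the coding probe was so on 5 of 5. The CXCL2 probes (hg17, chr4:75328020-75328079 near the 3′ end and chr4:75329377-75329436 in the coding sequence, minus strand) were closer, with HIPP means of 1.67 ± 0.65 and 1.38 ± 0.59 and P4 means of 0.68 ± 0.14 and 0.65 ± 0.08 (SD, n = 5).

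The coding probes of both genes are printed because they share sequence, and the array annotation lists the CXCL2 probe for 2 RefSeq transcripts. Capitals mark the stretch they have in common.
CXCL2: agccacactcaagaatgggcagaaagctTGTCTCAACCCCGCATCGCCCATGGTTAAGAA
CXCL3: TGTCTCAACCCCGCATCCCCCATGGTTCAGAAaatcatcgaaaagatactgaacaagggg

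The overlap is 32 bases long, and 30 of them are identical. The differences are G46C and A56C, with the base of the CXCL2 probe first and positions counted from 1 at its 5′ end. How much of either coding probe's signal came from the other transcript was not tested.

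**Figure D2:**
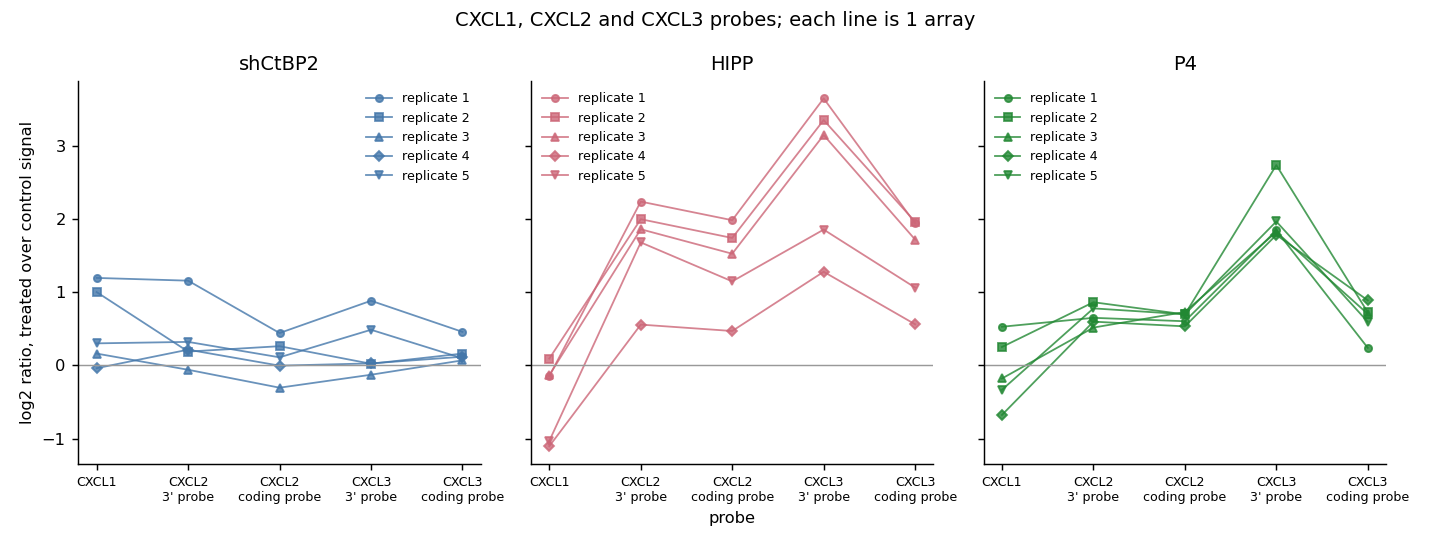
Log2 ratio of treated to control signal (vertical axis) for the 5 probes of CXCL1, CXCL2 and CXCL3 (horizontal axis), 1 panel per treatment and 1 line per array. On all HIPP and P4 arrays the 3′ probe of CXCL3 is higher than its coding probe. On the same arrays CXCL1 is lower than every CXCL2 and CXCL3 probe except on P4 replicate 1, where it is at 0.53 and the CXCL3 coding probe at 0.24.

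IL8, the remaining neutrophil chemokine here (probe on hg17, chr4:74974300-74974359), had the widest spread. Its HIPP ratios were −0.11, −1.91, 1.06, −3.58 and −1.25. On 0 of 5 HIPP arrays was the treated signal well above background, and on 2 the control signal, so that no fold is given (limma adjusted p = 0.0638). In shCtBP2 cells the ratios were −0.19, −0.31, −1.20, 1.44 and −0.41 (−0.13 ± 0.97, SD, n = 5, limma adjusted p = 0.886), and on the P4 arrays −0.72, −0.05, 0.49, −0.97 and 0.04 (−0.24 ± 0.59, limma adjusted p = 0.728). Both groups lay on both sides of 0. IL8 passed the test in no treatment. With HIPP the limma adjusted p was 0.0448 without replicate 1, 0.00793 without replicate 3 and 0.328 without replicate 4, on signals that were not well above background in the treated channel.

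CCL5, a T cell and monocyte chemokine (hg17, chr17:31223445-31223504), was well above background in the treated channel on 0 of 15 arrays. In the control channel it was so on 1 HIPP and 1 P4 array. No fold is given, and CCL5 passed the test in no treatment (limma adjusted p = 0.851 in shCtBP2 cells, 0.467 for HIPP and 0.104 for P4).

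Of the gp130 cytokines, IL11 (hg17, chr19:60568771-60568830, minus strand) went opposite ways. In shCtBP2 cells its ratios were 0.97, 0.70, 0.65, 0.56 and 0.39, positive on all 5 arrays. The mean was 0.65 ± 0.21 (SD, n = 5, limma adjusted p = 0.00316), 1.57 times the control. With HIPP the ratios were −0.59, −0.19, −0.59, −0.77 and −0.92, negative on all 5 arrays. Across all genes tested, 20.9% were positive on all shCtBP2 arrays and 21.9% negative on all HIPP arrays. The HIPP mean was −0.61 ± 0.27 (SD, n = 5, limma adjusted p = 0.000849), below that treatment's fold-change threshold. By the methods' t-test its adjusted p was 0.0932. With P4 the ratios were −0.03, −0.70, −0.43, −0.42 and 0.04, with a mean of −0.31 ± 0.31 (SD, n = 5, limma adjusted p = 0.0719). IL11 was 1.27 lower with HIPP than in shCtBP2 cells on the log2 scale (95% interval of the difference −1.64 to −0.89, limma adjusted p = 8.63e-05). With P4 it was 0.96 lower (95% interval −1.33 to −0.59, limma adjusted p = 0.0025). Within slide 3 the difference between HIPP and shCtBP2 was −1.68. The shCtBP2 call of IL11 fell below the fold-change threshold without replicate 1, where the ratio was 0.57.

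IL6 (hg17, chr7:22544447-22544506), which drives acute inflammation through IL6R and gp130, fell in shCtBP2 cells. Its ratios were −0.28, −0.40, −1.14, −0.76 and −0.81, negative on all 5 arrays and lower on slide 4 than on slide 3. The mean was −0.68 ± 0.34 (SD, n = 5, limma adjusted p = 0.034), 0.624 times the control. By the methods' t-test the adjusted p was 0.078. This call was lost without replicate 2 (limma adjusted p = 0.0571), 3 (0.121), 4 (0.0986) or 5 (0.098), and with slide as a fixed block the ratio was 0.06 (limma adjusted p = 0.904). With HIPP the ratios were 0.44, −0.03, 0.03, −1.05 and −0.49. The slide 2 arrays averaged 0.15 and those of slide 3 −0.77, and the mean did not pass the test (−0.22 ± 0.57, SD, n = 5, limma adjusted p = 0.368). With P4 they were 0.02, 0.69, 0.16, −0.53 and −0.25 (0.02 ± 0.46, limma adjusted p = 0.949). The differences from shCtBP2, 0.46 with HIPP and 0.70 with P4, did not pass the test (95% intervals −0.14 to 1.06 and 0.10 to 1.30, limma adjusted p = 0.257 and 0.124). With the replicate number as a block, a pairing that the sample titles do not state, the P4 difference passed (limma adjusted p = 0.0437).

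LIF, a gp130 cytokine that acts through LIFR, rose with HIPP. Its ratios were 0.27, 0.82, 0.52, 0.93 and 1.22, all positive, with the 2 slide 3 arrays above the 3 of slide 2. The mean was 0.75 ± 0.37 (SD, n = 5, limma adjusted p = 0.00138), 1.68 times the control and below the fold-change threshold. With P4 the ratios were −0.20, 0.13, 0.07, 0.61 and 0.64 (0.25 ± 0.36, SD, n = 5, limma adjusted p = 0.237), and on the shCtBP2 arrays −0.24, −0.02, 0.65, 0.58 and 0.17 (0.23 ± 0.38, limma adjusted p = 0.393). The difference between HIPP and shCtBP2 was 0.52 (95% interval 0.04 to 1.01) and did not pass after adjustment (limma adjusted p = 0.11). It passed with slide as a fixed block (1.20, limma adjusted p = 0.0117). With the replicate number as a block, a pairing that the sample titles do not state, it passed as well (limma adjusted p = 0.0306). Of its 2 probes, the one at hg17, chr22:28964215-28964274 averaged 1.15 ± 0.36 with HIPP and the one at chr22:28961267-28961326 0.35 ± 0.44 (SD, n = 5). The latter is the brighter, and with it alone LIF did not pass the test with HIPP (limma adjusted p = 0.0845).

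Of the IL-1 cytokines, IL1B (hg17, chr2:113303660-113303719, minus strand) was called with P4. Its ratios there were 1.48, 0.76, 1.43, 0.04 and 1.00, near 0 on replicate 4 and higher on the others. The mean was 0.94 ± 0.59 (SD, n = 5, limma adjusted p = 0.00281), 1.92 times a control signal that was well above background on 3 of 5 P4 arrays. With normexp and loess the ratio was 0.17 (limma adjusted p = 0.0117), below the fold-change threshold. It also fell below the fold-change threshold without replicate 1 (0.81) or replicate 3 (0.82), and the methods' t-test gave an adjusted p of 0.259. The signal was low: 40 of 50 treated and 29 of 50 control spots were well above background. With HIPP the ratios were 0.80, −0.02, 0.38, 0.49 and −0.35 (0.26 ± 0.45, SD, n = 5, limma adjusted p = 0.298). In shCtBP2 cells 4 arrays lay between 0.13 and 0.25 and replicate 4 was at 1.00 (0.34 ± 0.37, limma adjusted p = 0.289). With P4 IL1B was 0.60 above shCtBP2, a difference that did not pass the test (95% interval −0.01 to 1.21, limma adjusted p = 0.205).

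IL1A (hg17, chr2:113248593-113248652, minus strand) was not well above background in 50 of 50 control spots of any treatment. Of the treated spots, 1 of 50 was so with HIPP and 0 with P4 and in shCtBP2 cells. With HIPP the bound came to 1.07-fold higher (limma adjusted p = 9.21e-05, and 0.0143 with normexp and loess, from which the bound is taken). It is no firm lower limit, since the treated signal was measured on 1 of 5 arrays. The call fell below the fold-change threshold without replicate 3. No fold is given for the other treatments, where both channels were below background, although P4 passed the test (limma adjusted p = 0.0276, and 0.0767 in a fit on the P4 arrays alone). It did not pass without any 1 of P4 replicates 2 to 5 (limma adjusted p = 0.0604 to 0.103).

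**Figure D3:**
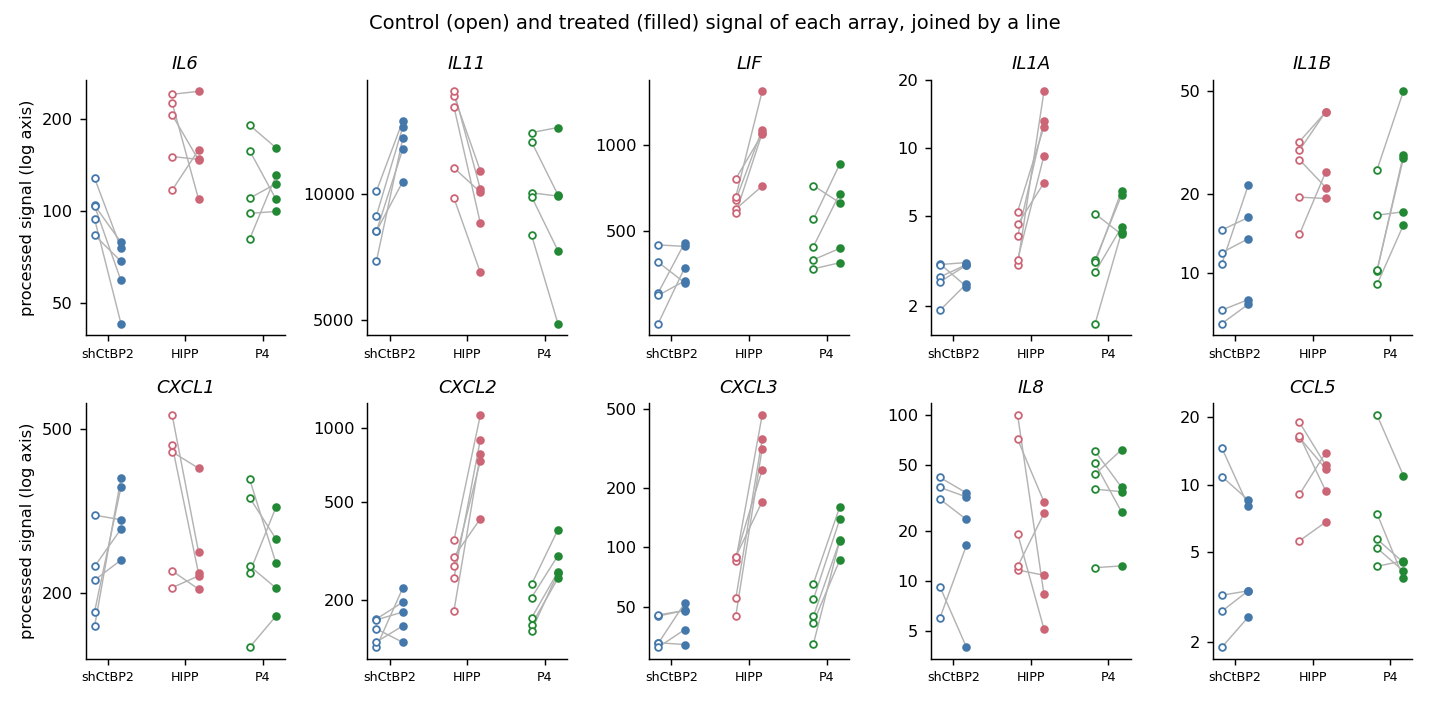
Processed signal on a log axis (vertical axis) of the control channel (open) and treated channel (filled) of each array, joined by a line, for each gene and treatment (horizontal axis). The control signal of CXCL2 lay between 128 and 167 on the shCtBP2 arrays and between 181 and 349 on the HIPP arrays.

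The control signals differed between treatments. The CXCL2 control signal was 128 to 167 on the shCtBP2 arrays (median 152) and 181 to 349 on the HIPP arrays (median 276). For LIF it was 238 to 449 and 578 to 764, and for CXCL3 31.4 to 45.7 and 45.2 to 89.7. IL6 showed the same order, with 83.4 to 128 on the shCtBP2 arrays and 117 to 242 on the HIPP arrays. NFKB1, CAV1 and VIM, outside this set, showed this order as well. Their mean control log2 signals were 12.1, 15.1 and 16.3 on the shCtBP2 arrays and 12.8, 15.8 and 17.6 on the HIPP arrays. Such signals are not scaled between arrays, and their part in the ratios was not tested.

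With slide as a fixed block, in the same limma fit, 4 of the 10 genes were called in shCtBP2 cells, namely IL11, CXCL1 (1.44), CXCL2 (0.84) and CXCL3 (1.05). With P4, LIF (0.94) and CXCL1 (−1.0) were called in place of CXCL3 (0.51) and IL1B (0.90), and with HIPP CXCL2 (1.29) fell below the fold-change threshold. The differences between HIPP and shCtBP2 for CXCL2 (0.45, limma adjusted p = 0.277), CXCL3 (0.81, limma adjusted p = 0.0574) and the dim IL1A (limma adjusted p = 0.135) no longer passed, and neither did that of CXCL3 between P4 and shCtBP2, which changed sign (−0.54, limma adjusted p = 0.423). Those of LIF between HIPP and shCtBP2 (1.20, limma adjusted p = 0.0117) and of CXCL1 between P4 and shCtBP2 (−2.44, limma adjusted p = 0.0414) came to pass. IL11 differed from shCtBP2 by −1.68 with HIPP (limma adjusted p = 0.00104) and −1.18 with P4, where the test was no longer passed (limma adjusted p = 0.0859). Only slides 2 and 3 held arrays of 2 treatments. P4 and shCtBP2 shared no slide, and replicate 5 was the only P4 array beside another treatment. In shCtBP2 cells the block values of CXCL1, CXCL2 and CXCL3 lay above their highest measured ratios (1.20, 0.80 and 0.67). With P4 those of LIF and CXCL1 also lay outside the measured ratios.

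**Figure D4:**
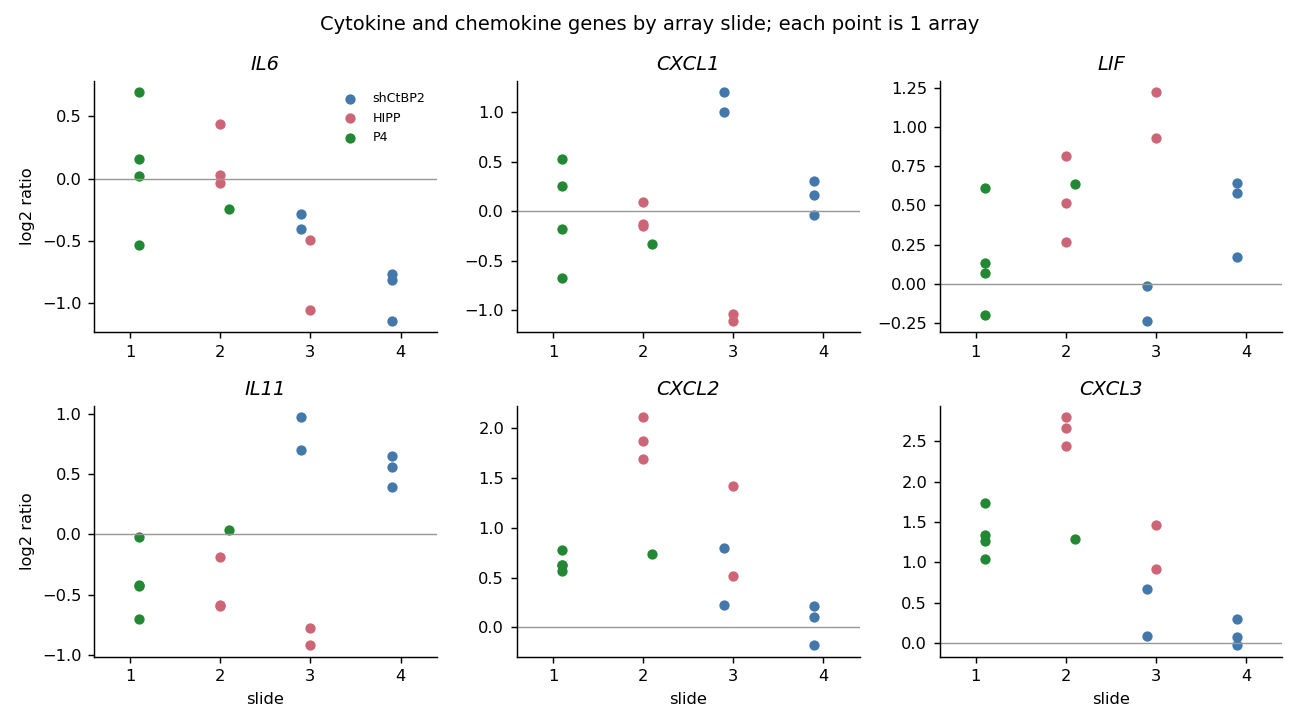
Log2 ratio of treated to control signal (vertical axis) by array slide (horizontal axis) for 6 of the genes, with 1 point per array colored by treatment. On slide 3 the HIPP and shCtBP2 arrays of CXCL1, LIF and IL11 are apart, and those of IL6 lie between −1.05 and −0.28.

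The scale of the ratios depended on the background correction. With normexp correction and loess normalization, which add an offset to low signals, CXCL2 averaged 0.89 and CXCL3 0.70 with HIPP (limma adjusted p = 0.000406 and 0.000435), and CXCL3 averaged 0.53 and IL1B 0.17 with P4 (limma adjusted p = 0.00501 and 0.0117). All of these passed the adjusted p and none the fold-change threshold. The differences from shCtBP2 of CXCL1 with HIPP (−0.60, limma adjusted p = 0.0845), of CXCL3 with P4 (0.44, limma adjusted p = 0.123) and of the dim IL1A with HIPP (limma adjusted p = 0.404) no longer passed. IL11 in shCtBP2 cells stayed called, at 0.62, and IL6 there was not (−0.32, limma adjusted p = 0.1).

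Among 14 receptors and antagonists of these ligands, 13 were tested in shCtBP2 cells and with P4 and 12 with HIPP. IL6R, the ligand-binding chain for IL6, rose with HIPP to a log2 ratio of 2.06 ± 0.55 and with P4 to 0.60 ± 0.25, and fell in shCtBP2 cells to −0.71 ± 0.14 (SD, n = 5, limma adjusted p = 1.06e-07, 0.00939 and 0.00822). IL6ST, the shared gp130 chain, rose with HIPP to 1.63 ± 0.47 (SD, n = 5, limma adjusted p = 1.64e-06). OSMR, which pairs with gp130 for oncostatin M, rose with HIPP (0.77 ± 0.33) and P4 (0.49 ± 0.31). LIFR, the ligand-binding chain of the LIF receptor, fell with P4 to −0.90 ± 0.44 (limma adjusted p = 0.00056) and averaged −0.24 ± 0.38 with HIPP. In all, 5 of 12 rose and 1 fell with HIPP, 6 of 13 rose and 2 fell with P4, and 1 of 13 rose and 3 fell in shCtBP2 cells. Of all genes tested, 24.9% rose and 23.9% fell with HIPP, 17% and 14.8% with P4 and 6.58% and 6.92% in shCtBP2 cells, so that the HIPP count, 6 of 12, was at the share of all genes. The list medians were 0.21, 0.25 and 0.01, beside 0.08, 0.11 and 0.04 over all genes.

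Downstream of gp130, 2 of 6 genes tested fell with P4, beside 14.8% of all genes, and 0 of 7 passed in shCtBP2 cells, beside 13.5%. STAT3 fell with P4 (−0.45 ± 0.24, SD, n = 5), and so did the kinase TYK2 (−0.31 ± 0.18). SOCS3, the feedback inhibitor of this pathway, fell with HIPP (−0.50 ± 0.32), where the phosphatase PTPN11 rose (0.36, limma adjusted p = 0.021). Medians over the genes tested were −0.00 with P4 and −0.07 in shCtBP2 cells. In the IL-1 receptor pathway, 3 of 7 genes tested fell and 1 rose with HIPP, 4 of 7 fell with P4 and 1 of 7 fell in shCtBP2 cells, beside 23.9%, 14.8% and 6.92% of all genes that fell. MYD88, the adaptor of the IL-1 receptor, fell in all 3 (SD, n = 5, −0.36 ± 0.24 in shCtBP2 cells, −0.60 ± 0.28 for HIPP and −0.52 ± 0.12 for P4). MAP3K7IP2 (TAB2) fell with HIPP (−0.78 ± 0.14) and P4 (−0.29 ± 0.14), IRAK1 with HIPP (−0.41 ± 0.34) and P4 (−0.68 ± 0.46) and IRAK4 with P4 (−0.58 ± 0.38). Over the tested members the medians were −0.15 with HIPP, −0.29 with P4 and 0.00 in shCtBP2 cells.

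Of 14 NF-kappaB subunits and inhibitors, 10 were tested with HIPP, where 3 rose and 4 fell, 11 with P4, where 2 rose and 3 fell, and 14 in shCtBP2 cells, where 3 rose. Past the adjusted p were 48.7%, 31.9% and 13.5% of all genes in the same order. The list medians were −0.35, 0.13 and 0.06. RELB, a subunit of the non-canonical pathway, rose in all 3 treatments, by 0.46 ± 0.07 in shCtBP2 cells, 0.54 ± 0.32 for HIPP and 0.46 ± 0.13 for P4 (SD, n = 5). NFKBIE, an inhibitor, rose in shCtBP2 cells (0.47 ± 0.16) and with HIPP (0.66 ± 0.27). NFKB1 fell with HIPP (−0.68 ± 0.15), while the kinase IKBKB rose (0.52 ± 0.14). No gene of this list, of the gp130 list or of the IL-1 receptor list passed the fold-change threshold in any treatment.

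Of 10 C/EBP factors and regulators of mRNA decay, 5 of 8 tested rose and 2 fell with HIPP, and 5 of 10 rose with P4. In shCtBP2 cells 0 of 9 passed. Of all genes, 24.9% rose and 23.9% fell with HIPP, 17% rose with P4 and 13.5% passed in shCtBP2 cells. CEBPB, a C/EBP factor known to activate the IL6 promoter, averaged 1.17 ± 0.19 with HIPP and 1.34 ± 0.21 under P4 (SD, n = 5, limma adjusted p = 1.26e-07 and 2.74e-07) and 0.28 ± 0.07 in shCtBP2 cells (limma adjusted p = 0.0549). CEBPG averaged 1.51 ± 0.22 with HIPP and 1.18 ± 0.20 with P4, both called, and 0.26 ± 0.02 in shCtBP2 cells, and CEBPD rose with HIPP (1.28 ± 0.24) and P4 (0.44 ± 0.34). ZC3H12A, a ribonuclease that degrades IL6 mRNA, rose with HIPP (1.36 ± 0.27) and P4 (1.11 ± 0.39, SD, n = 5). Medians over the list were 1.00 with HIPP, 0.30 with P4 and 0.11 in shCtBP2 cells.

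Of 15 other cytokines and chemokines, 3 of 14 tested rose and 2 fell with HIPP, 1 of 11 rose and 1 fell with P4, and 3 of 14 fell in shCtBP2 cells. The HIPP and P4 counts were below the 48.7% and 31.9% of all genes that passed, and 6.92% of all genes fell in shCtBP2 cells. IL18, a further IL-1 family cytokine, fell with HIPP (−1.97 ± 0.52) and P4 (−1.90 ± 0.54, SD, n = 5, limma adjusted p = 1.54e-06 and 1.15e-05). CCL2, the main monocyte chemokine, fell in shCtBP2 cells (−1.19 ± 0.99, limma adjusted p = 0.0132) and with HIPP (−1.88 ± 0.38, limma adjusted p = 7.92e-05) and averaged −0.16 ± 0.57 with P4 (SD, n = 5). IL24 passed the test with HIPP (1.00 ± 0.52), with a control signal well above background on 3 of 5 arrays, and CSF1 fell in shCtBP2 cells (−0.45 ± 0.11). Over the tested members the medians were 0.17, 0.09 and −0.14 with HIPP, with P4 and in shCtBP2 cells.

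Of 10 further genes known as NF-kappaB targets, 3 of 8 tested rose and 2 fell with HIPP, 2 of 9 rose and 2 fell with P4, and 2 of 8 rose and 1 fell in shCtBP2 cells, beside 48.7%, 31.9% and 13.5% of all genes that passed. ICAM1, a leukocyte adhesion molecule, rose in all 3 treatments (1.20 ± 0.33 in shCtBP2 cells, 1.78 ± 0.24 for HIPP and 0.80 ± 0.44 for P4, SD, n = 5). PTGS2, the inducible cyclooxygenase, rose in all 3 as well (0.65 ± 0.54, 1.14 ± 0.31 and 1.8 ± 0.14). BIRC3 fell in all 3 (−0.55 ± 0.21, −0.55 ± 0.20 and −0.62 ± 0.19). PLAU, the urokinase gene, fell with HIPP (−2.17 ± 0.44) and P4 (−0.66 ± 0.27). The list medians were 0.29 with HIPP, 0.21 with P4 and −0.11 in shCtBP2 cells.

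**Figure D5:**
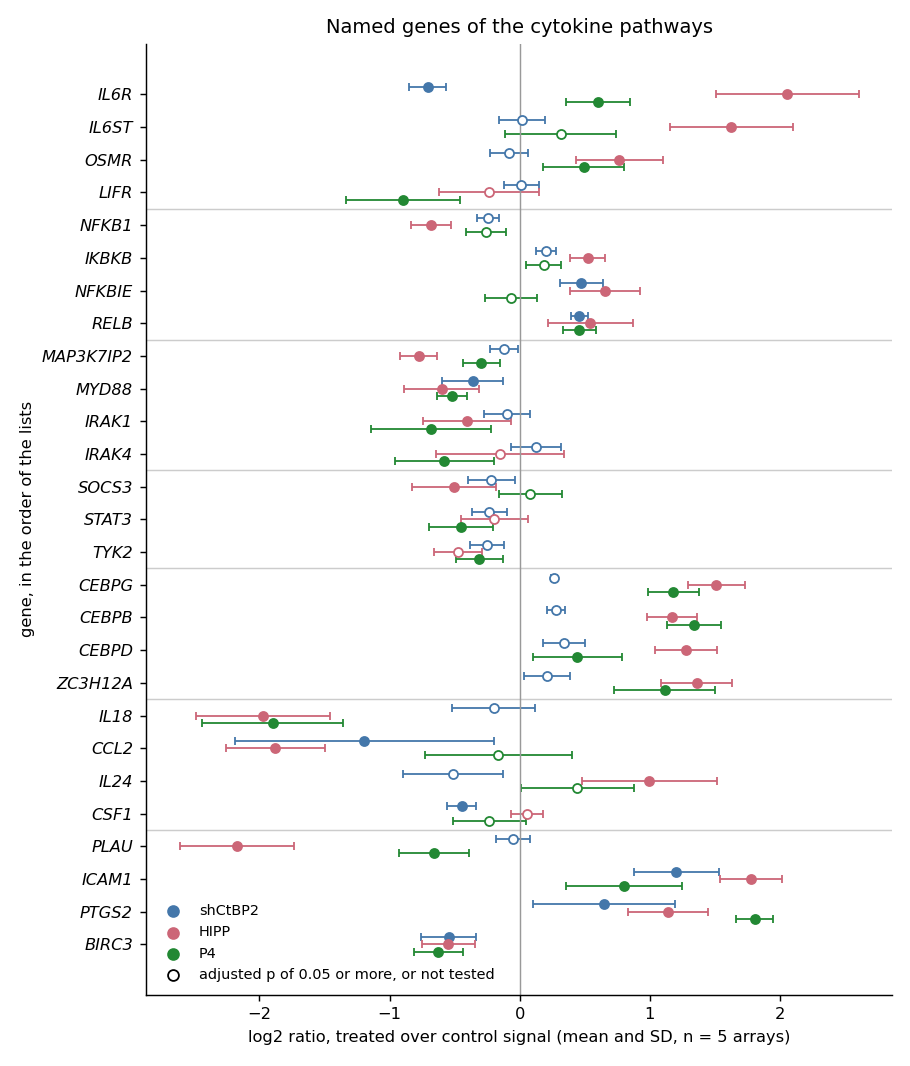
Mean log2 ratio of treated to control signal with its SD (horizontal axis, n = 5 arrays per point) for the named genes of 7 lists (vertical axis), from receptors at the top through signalling, C/EBP and other cytokine genes to other NF-kappaB targets, with lines between lists. Open points had an adjusted p of 0.05 or more or were not tested. CEBPB, CEBPG and ZC3H12A lie above 1 with HIPP and P4, and IL18 lies below −1.

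Since leukocytes also make these cytokines, 8 of their markers were read on the same arrays. PTPRC (CD45), the pan-leukocyte marker, was well above background on 0 of 15 arrays in the treated channel and 2 in the control channel, and MS4A1 and LYZ on 0 in both. CD14 and CD68 were so on 15 of 15. CD68, a lysosomal protein that other cells also express, rose in all 3 treatments, to 0.48 ± 0.24 in shCtBP2 cells, 2.01 ± 0.26 for HIPP and 1.12 ± 0.41 for P4 (SD, n = 5). MS4A1 passed the test with P4 (limma adjusted p = 0.0246), with neither channel above background, and the other markers passed in no treatment. The summed signal of the 8 markers was 5921 to 10304 in the treated channel of the HIPP arrays and 1938 to 2580 in their control channel. For P4 it was 2086 to 3849 and 1151 to 1692, and for shCtBP2 1327 to 1662 and 908 to 1371. CD68 made up most of each sum. Without it the other 7 markers summed to 242 to 489 in the treated and 243 to 497 in the control channel of the HIPP arrays, 126 to 433 and 111 to 392 for P4, and 63.1 to 260 and 64.9 to 236 for shCtBP2. The part of these signals in the cytokine ratios was not tested.

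Likeness over the 15 arrays was sought among genes measured on all of them and tested in all treatments (22877 genes). Only those whose array name is a RefSeq symbol were compared, 8940 for IL6. The ratios most like those of IL6 were those of QPCT (Pearson r = 0.95), FNDC3B (0.94) and LIPT1 (0.93). For LIF they were MAPKBP1 (0.88), UBE2C (0.87) and ALDH3B1 (0.86). The arrays share slides and 3 treatments, so these values describe likeness over these arrays.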

How the data were processed

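MDA-MB231 RNA was read on 15 two-color Agilent 4 × 44K arrays. The authors scanned them and used Feature Extraction (version 9.5.3.1, per the file headers) to subtract background and balance the dyes. The deposited columns hold signal intensity per spot and flags, and a second deposited table holds log10 ratios of the same arrays, used as an alternative. Here log2 of the corrected Cy5 over Cy3 signal was taken, spots flagged as non-uniform or population outliers were left out, and spots were averaged per probe and probes per gene. Genes needed values on 3 of 5 arrays, and after the study's methods genes under the 11th percentile of the interquartile range of a treatment's signals were dropped. The other columns of the files, which give the software's own tests, were not used.

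One limma fit (version 3.58.1, R 4.3.3) with a coefficient per treatment tested each ratio against 0 and the differences from shCtBP2, with Benjamini-Hochberg adjustment over all genes tested. The step was tested on simulated data. A missed test does not show a gene unchanged. Bounds for dim probes are the bright channel's mean over the dim channel's, each dim value raised to the lowest signal well above background on its array, after normexp (offset 50), loess and Aquantile normalization, and are open to dye bias. The genes and lists were chosen with earlier results of these data known. Named genes are the 10 members, CTBP2, the up to 4 genes of each list with the smallest adjusted p and the 3 genes most like IL6 and LIF (those of IL8, dim in many arrays, are not given). PTPN11 was chosen after its value was seen. One gene that the rule names is not reported here, and neither are the HIPP counts of its list. Array gene names were used, with IL8, MAP3K7IP2 and TACSTD1 as older names. Probe positions are those of the array annotation (hg17). P-values rest on the spread between arrays within treatments, pooled over the 15 arrays. The alternatives covered background and dye correction, the variability filter, probe choice, flagged spots, slide and replicate blocks, the methods' t-test and leaving out each replicate. The number of arrays limits the precision.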

Additional observations from a re-analysis of the deposited data

Results flagged for a closer look

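IL1B in shCtBP2 cells stood out on replicate 4, with a log2 ratio of 1.00 where the other 4 arrays lay between 0.13 and 0.25. The gap to the nearest array was 0.871 of the whole range, above Dixon's critical value of 0.71 for 5 samples. This was 1 of 30 combinations of gene and treatment examined, and chance alone flags about 1 in 20.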

How the results depend on the processing

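Leaving out 1 replicate at a time gave 1 called gene in shCtBP2 cells (lowest and highest 1), 3 to 4 with HIPP and 1 to 2 with P4, beside 2, 3 and 2 with all arrays. The replicates behind each lost call stand beside the results, and IL1A with P4 was called without replicate 1. Median-centred signals added the dim IL8 with HIPP and CCL5 with P4. With normexp and loess, 1, 0 and 0 of the 10 genes were called. Mean signals without background or dye correction, chosen after seeing the data, gave 0, 0 and 0, and moved the median of all genes to −0.22, −0.39 and −0.26. Among all called genes 31.4%, 2.54% and 35.4% were then higher, against 51.0%, 48.7% and 50.8%. With normexp and loess 268, 282 and 583 genes of the whole array were called, against 1806, 1940 and 2334. The adjusted p alone gave 5 genes with HIPP and 4 with P4, the methods' t-test 1 in shCtBP2 cells (without IL6) and 1 with P4 (without IL1B), the brightest probe 1 with P4 (without CXCL3), and slide as a fixed block 4 in shCtBP2 cells. The cause was not tested.

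Signs changed as follows. On mean signals, log2 ratios were −0.19 for IL6 with P4, −0.30, −0.19 and −0.22 for IL1A and −0.21, −0.32 and −0.093 for IL1B (shCtBP2, HIPP and P4), −0.16 for LIF with HIPP and −0.11 for CXCL3 in shCtBP2 cells, and the differences between HIPP and shCtBP2 were −0.055 for IL6 and −0.18 for LIF. With slide as a fixed block, ratios were 0.058, 0.76, −0.37 and 0.18 for IL6, IL8, LIF and CCL5 in shCtBP2 cells, −0.76 for IL6 with P4 and 0.055 for CCL5 with HIPP. The differences from shCtBP2 were −0.43 (HIPP) and −0.82 (P4) for IL6, −0.70 for CXCL2 and −0.54 for CXCL3 with P4. Other changes of sign were 0.048 for CCL5 in shCtBP2 cells (normexp and loess), 0.0096 for the IL1B difference between HIPP and shCtBP2 (median-centred signals), 0.038 for that of CCL5 (the authors' log10 ratios) and −0.019 for the LIF difference between P4 and shCtBP2 (slide as a random block). Leaving out 1 replicate gave −0.15 to 0.16 for IL6 and −0.23 to 0.068 for CXCL1 with P4, −0.53 to 0.14 for IL8 and −0.21 to 0.12 for CCL5 in shCtBP2 cells. For differences it gave −0.38 to 0.28 for IL8 and −0.092 to 0.14 for LIF (P4) and −0.22 to 0.081 for IL1B and −0.33 to 0.028 for CCL5 (HIPP). Over all alternatives, 453 ratios kept their direction and stayed called or not called, and 348 differences kept their direction and side of the adjusted p. A ratio that crossed the adjusted p without a change of call counts among the 453. Of the ratios 25 lost their call, 10 became called and 21 changed sign. Of the differences 25 no longer passed the adjusted p, 5 came to pass it and 20 changed sign.

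Deviations of arrays of the same replicate number correlated at −0.0094 to 0.46. All 5 pairs of shCtBP2 and P4 arrays were over 0.1 (0.14 to 0.34), of the pairs with HIPP those of replicate 1 with P4 (−0.0094) and replicate 4 with shCtBP2 (0.071) were not, and 3 of 15 arrays were closest to their own number. With the replicate block 2, 3 and 2 genes were called, and the differences from shCtBP2 of IL6 and CXCL1 with P4 and of LIF with HIPP came to pass the test (limma adjusted p = 0.0437, 0.0226 and 0.0306). The dim signals of IL1A, IL8 and CCL5 limit what these arrays can show for them.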
